A study of Arabidopsis thaliana with 24 samples.

Results

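Measured in 8 groups of genotype and light, 10 genes of Arabidopsis thaliana had array signals that came near to an on-off difference between phytochrome mutants: AT3G47320, AT1G23960, AT4G04460, AT5G23830, AT4G19500, AT3G47250, AT2G04800, AT4G01910, AT4G02540 and PIP. They are 10 of 13350 genes with a probe set paired with 1 gene, 8103 of which were bright enough to be tested, all 10 among them, and each was read by 1 probe set. They were chosen by their signals, for large level differences between genotypes on these same arrays, so those levels are given below as a description, with no test. The working name of the set, genes that distinguish phyB from the double mutant, held for 8 of the 10. AT4G19500 and PIP were low in both mutants and did not separate them.

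The samples were entire seedlings, with root, hypocotyl and cotyledon, at an age of 4 days, hybridised to Affymetrix arrays. The 4 genotypes were wild type, phyA, phyB and the double mutant phyAphyB, which are named for the photoreceptors phytochrome A and phytochrome B. Seedlings of each were kept in darkness or given continuous red light of 680 nm at 8 µmol m-2 s-1 over 1 hr. Each of the 8 groups held 3 arrays, biological replicates per the design text, 24 arrays in all. The sources used here give neither the alleles nor the parental strains, so a mutation and any other difference between the lines cannot be told apart. PHYA and PHYB had no named probe set and were not used to check the labels.

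Phytochromes are the plant's red and far-red light receptors. Light turns them to an active form that enters the nucleus, where it removes transcription factors that hold dark-grown seedlings in their elongated, pale state. In seedlings, phytochrome A is abundant in the dark and is lost in light, whereas phytochrome B is the main receptor for continued red light. As whole seedlings were measured, fewer cells of a type and less RNA per cell cannot be told apart.

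Signals are linear values on a common scale, on which the mean of each array after trimming was between 500.038 and 500.044. The median signal of an array was between 169.8 and 195.1. The 40th percentile of an array, used here as the line between dim and bright, was between 97.4 and 127.2. An array correlated with the others of its group at 0.954 to 0.981. The array control for the large (25S) ribosomal RNA was at 10508 on the second and 13574 on the third dark phyA array and between 46.8 and 450.0 on the other 22 arrays. Of the markers with a named probe set, the cotyledon genes LHCB4.1, LHCB4.2 and RCA and the elongation-linked genes XTH33, EXO and HAT2 were above the 40th percentile on 24 of 24 arrays, and IAA29 on 22. The root hair genes EXPA7 and EXPA18 were above it on 1 and 10 arrays, and the seed coat gene BAN on 0.

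Before the members are described, 2 arrays need mention, which were singled out after their values had been seen. The second dark wild type array and the second dark phyB array lay part of the way towards the other genotype, each on some of the probe sets below. On a scale where the red-light wild type is 0% and red-light phyB is 100%, 10 other probe sets that were at least 8-fold higher in red-light phyB had a median position of 12.6% on the second dark wild type array. Replicates 1 and 3 had 0.867% and 0.656%. For 5 other probe sets that were lower in red-light phyB, the second dark phyB array was at 86.6%, and replicates 1 and 3 at 99.7% and 98.8%. On those 5, the dark wild type arrays were at 13.9%, 20.1% and 22.1%, so the second did not stand apart there. On the 10, the dark phyB arrays were at 105%, 97.1% and 102%. A like scale ran from red-light wild type to red-light phyAphyB. On 9 probe sets higher in red-light phyAphyB, the dark wild type arrays were at 1.28%, 8.08% and -1.19%. On 19 that were lower there, they were at 96.3%, 99.8% and 98.2%, and the second did not stand apart. Whether the shift of the second dark wild type array was towards phyB in particular was not tested.

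Some of the members stood apart on the same arrays. AT3G47320 and AT1G23960 stood at 5.27% and 8.49% on the second dark wild type array, and between -0.507% and -0.21% on the other dark wild type arrays. AT5G23830, AT4G19500 and PIP, which are low in phyB, showed no such shift there, at -1.5%, 13.1% and -4.69%. The second dark phyB array was the farthest from 100% towards wild type for each of the 5 members that differ between wild type and phyB, at 83.8% to 92%. Replicates 1 and 3 of dark phyB were at 94.8% to 113%. The cause was not tested, and the red responses below that leaving out these arrays moved most are given with and without them.

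**Figure D1:**
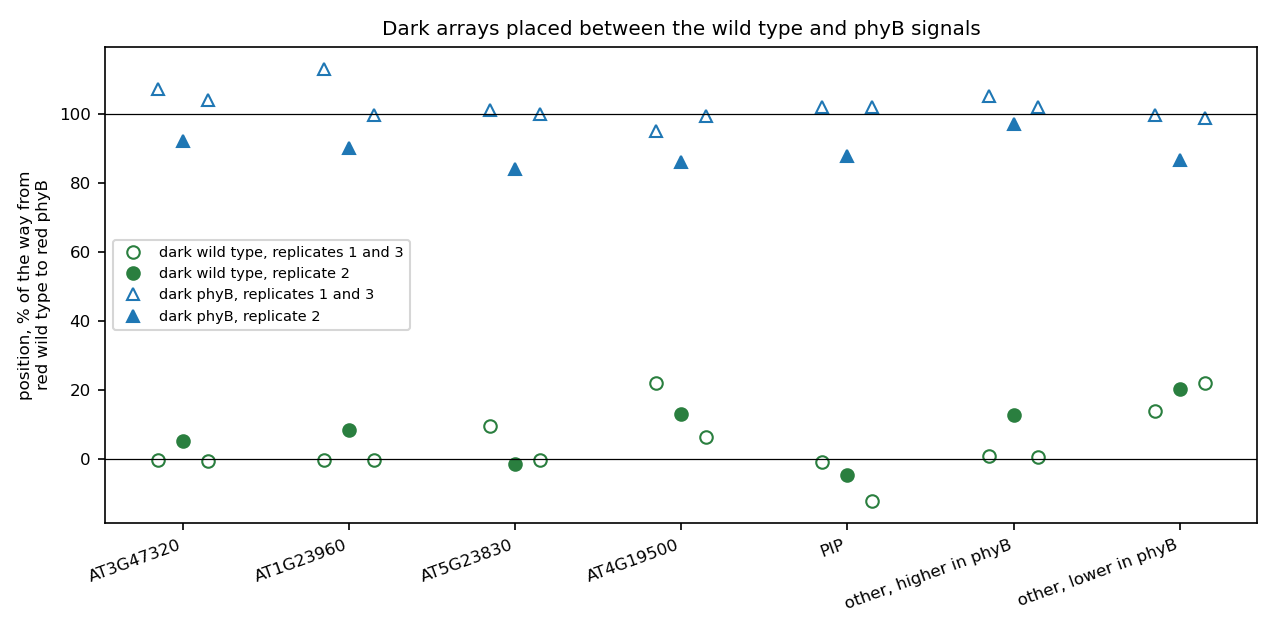
Position of each dark wild type array (circles) and dark phyB array (triangles) as a percentage of the way from the red-light wild type mean (0) to the red-light phyB mean (100), for 5 members and for the median of 10 and 5 other probe sets higher or lower in red-light phyB. Filled symbols are replicate 2, and those of dark phyB lie at 83.8% to 92% for the 5 members.

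The members fell into 5 patterns of high and low genotypes. A pattern was counted where the lowest array of the high genotypes was at least 2 times the highest array of the low genotypes, in dark and red together. Of all 15085 tested probe sets, 74 (0.491%) met this in some pattern. The 10 members met it because they were chosen for it. Their ratio of lowest high to highest low array ran from 2.16 for AT2G04800 and 3.33 for PIP, the members nearest to the threshold, to 15.97 for AT3G47320. None of the tested probe sets was high or low in phyA alone.

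**Figure D2:**
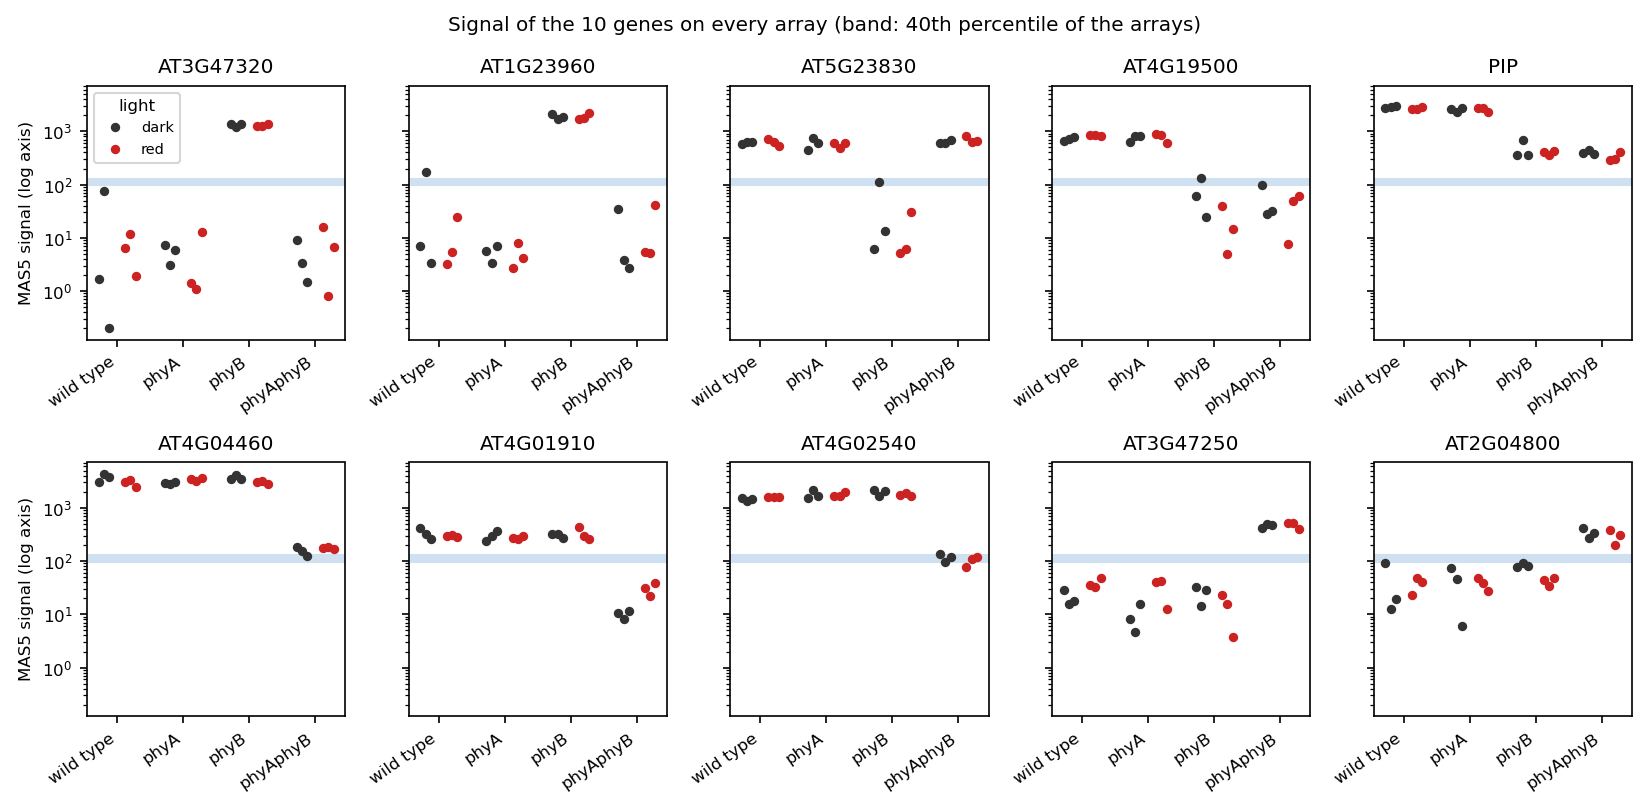
Signal of each of the 10 members on every array (log scale), by genotype and light, 3 arrays a group, with a band over the range of the arrays' 40th percentiles. AT3G47320 and AT1G23960 are high on the 6 phyB arrays only, and AT4G19500 and PIP are low on both phyB and phyAphyB arrays.

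AT3G47320 and AT1G23960 were high in phyB alone, a pattern shared by 13 tested probe sets (0.0862%). AT3G47320 is listed as a pseudogene in the TAIR10.1 gene table. In phyB its signal was 1391, 1198 and 1355 in the dark and 1252, 1272 and 1380.3 in red light. In phyAphyB it was 9.2, 3.3 and 1.5 in the dark and 15.9, 0.8 and 6.6 in red light. All 6 phyB arrays were far above all 6 double mutant arrays. In wild type the signals were 1.7, 75 and 0.2 in the dark and 6.4, 12 and 1.9 in red light. The value of 75 belongs to the second dark wild type array described above. The phyA signals were 7.4, 3.1 and 5.8 in the dark and 1.4, 1.1 and 12.7 in red light. On the log2 scale the double mutant lay below phyB by a difference of -8.52 in the dark and -8.21 in red light, and with 32 signal units added to every value by -5.20 and -5.08.

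AT1G23960, a protein-coding gene, had the same shape. Its phyB signals were 2145, 1710.5 and 1894 in the dark and 1664, 1788 and 2246 in red light. Its double mutant signals were 35.4, 3.9 and 2.7 in the dark and 5.4, 5.1 and 41.5 in red light. The groups of both mutants did not overlap in either light. Signals in wild type were 6.9, 171 and 3.3 in the dark and 3.2, 5.3 and 24.1 in red light. The 171 on the second dark wild type array was the only low reading of the gene above an array's 40th percentile. The phyA signals were 5.7, 3.3 and 7 in the dark and 2.7, 7.9 and 4.2 in red light. The double mutant differed from phyB by -8.05 in the dark and -7.49 in red light (log2 level), and with 32 units added by -5.47 and -5.36.

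AT5G23830 encodes a protein of the MD-2-related lipid recognition family, named for an animal protein that binds lipids. It was low in phyB alone, as were 9 tested probe sets (0.0597%). Its phyB signals were 6.2, 113 and 13.7 in the dark and 5.2, 6.1 and 29.9 in red light. Its double mutant signals were 609.9, 604 and 691 in the dark and 811, 623 and 648 in red light. The double mutant arrays overlapped those of wild type, which read 569.8, 638 and 631 in the dark and 729.7, 616 and 539.6 in red light. Signals in phyA were 452, 735 and 612 in the dark and 596, 479 and 601 in red light. The 113 in phyB is the second dark array, and without it every phyB reading was at most 29.9. The log2 level of the double mutant was above that of phyB by 4.90 in the dark and 6.13 in red light, and with 32 units added by 3.39 and 4.02.

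AT4G04460, AT4G01910 and AT4G02540 were low in the double mutant alone, a pattern of 19 tested probe sets (0.126%). AT4G04460 encodes an aspartic protease of the saposin-like type, enzymes found in vacuoles. Its double mutant signals were 185, 157 and 126 in the dark and 174, 181 and 169 in red light. Its phyB signals were 3482, 4126 and 3520.3 in the dark and 3088, 3163 and 2854 in red light. The level in the double mutant was low but not absent, since all 6 arrays were above their own 40th percentile. The wild type arrays read 3057, 4301 and 3866 in the dark and 3069, 3376 and 2480.1 in red light. In phyA it read 2858, 2782 and 3084 in the dark and 3478, 3202 and 3654 in red light. The 3 other genotypes thus lay together at 2480.1 or more. The double mutant differed from phyB by -4.58 in the dark and -4.12 in red light (log2 level).

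AT4G02540 and AT4G01910 both encode proteins rich in cysteine and histidine with C1 domains, a zinc-binding fold. For AT4G02540 the double mutant read 135, 95.9 and 118 in the dark and 78, 109 and 119 in red light. The phyB arrays read 2168, 1689.7 and 2087 in the dark and 1739.5, 1881 and 1671 in red light. Of the 6 double mutant arrays, 3 were above their 40th percentile. Wild type read 1550.4, 1344 and 1465 in the dark and 1584, 1618 and 1626 in red light. The single mutant phyA read 1509, 2162 and 1645 in the dark and 1631, 1643 and 1939.6 in red light. The phyB and wild type arrays did not overlap in either light, by the far smaller log2 differences of 0.44 and 0.13. The double mutant differed from phyB by -4.10 in the dark and -4.13 in red light (log2 level).

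AT4G01910 was dimmer throughout. The double mutant read 10.4, 8.1 and 11.7 in the dark and 30.5, 22.5 and 38.2 in red light. The phyB arrays read 318, 317 and 267 in the dark and 439, 297 and 254 in red light. Each double mutant array was below its own 40th percentile and each phyB array above it. In wild type the signals were 409.7, 324 and 259 in the dark and 296, 314 and 287 in red light. In phyA the signals were 237, 298 and 363 in the dark and 268, 256 and 293 in red light. The double mutant differed from phyB by -4.91 in the dark and -3.43 in red light (log2 level), and with 32 units added by -2.98 and -2.51. The exact size of these differences is set by the dim double mutant readings.

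AT3G47250 and AT2G04800 were high in the double mutant alone, a pattern of 15 tested probe sets (0.0994%). AT3G47250 encodes a plant protein of the DUF247 family, whose function is largely unknown. Its double mutant signals were 413, 506 and 479.8 in the dark and 523, 523 and 397 in red light. Its phyB signals were 32.7, 14.6 and 28.6 in the dark and 22.8, 15.5 and 3.7 in red light. None of the 18 low arrays was above its 40th percentile. Signals in wild type were 28.7, 15.9 and 17.6 in the dark and 35.3, 31.9 and 47.1 in red light. Signals in phyA were 8.1, 4.7 and 15.9 in the dark and 39.9, 43 and 12.5 in red light. The double mutant was above phyB by 4.28 in the dark and 5.45 in red light (log2 level), and by 3.13 and 3.49 with 32 units added.

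AT2G04800 had the smallest ratio of lowest high to highest low array of the set. Its double mutant signals were 412, 272 and 330.1 in the dark and 375, 199 and 307 in red light. Its phyB signals were 78.4, 92.2 and 82.1 in the dark and 45, 33.4 and 47.2 in red light. The groups did not overlap, but the lowest double mutant array was only 2.16 times the highest array of the other genotypes. The wild type arrays read 91.4, 12.4 and 19.1 in the dark and 23, 48.4 and 39.9 in red light. In phyA it read 73.5, 45.1 and 6.1 in the dark and 48.4, 39.5 and 27.2 in red light. The double mutant was above phyB by 1.99 in the dark and 2.78 in red light (log2 level), and with 32 units added by 1.66 and 2.11.

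AT4G19500 and PIP were low in phyB and in phyAphyB alike, as were 7 tested probe sets (0.0464%). AT4G19500 encodes a disease resistance protein of the TIR-NBS-LRR class, intracellular receptors that detect pathogen proteins. Wild type read 656, 728 and 782 in the dark and 839.5, 866 and 798 in red light. The single mutant phyA read 623, 820.0 and 812 in the dark and 900.2, 836 and 600.0 in red light. Both genotypes stood at 600.0 or more on every array. The phyB arrays read 62.1, 134 and 24.3 in the dark and 39.3, 5 and 14.7 in red light. The double mutant read 98.9, 27.5 and 31.8 in the dark and 7.6, 48.5 and 60.9 in red light. These ranges overlapped in both lights, with log2 level differences between the mutants of -0.41 and 0.99.

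PIP encodes proline iminopeptidase, an enzyme that removes proline from the start of peptides. In wild type the signals were 2726, 2814 and 2987 in the dark and 2665, 2608 and 2843 in red light. In phyA the signals were 2609.5, 2344 and 2777 in the dark and 2776, 2688 and 2282 in red light. Both genotypes were above every array of the other 2. The phyB arrays read 351, 686 and 352 in the dark and 412, 366 and 419 in red light. The double mutant read 394, 448 and 372 in the dark and 292, 308 and 417 in red light. All 12 low arrays were above their own 40th percentile, so PIP was reduced and not off. The log2 level of phyB was below that of wild type by a difference of -2.69 in the dark and -2.76 in red light.

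Between phyAphyB and phyB, 8 of the 10 members had arrays that did not overlap in the dark nor in red light, where 15.4% of all tested probe sets did so. A log2 level difference of at least 2 was seen for 7 members in the dark, against 0.563% of probe sets, and for 8 in red light, against 0.908%. Between phyB and wild type, 6 members did not overlap in both lights (11.0% of all probe sets), and between phyAphyB and wild type, 7 did (15.6%). Between phyA and wild type, 0 of 10 did, where 4.80% of all probe sets did. As the level differences chose the members, nothing is read from these counts. Of the 10, 4 had every low array below its 40th percentile, 4 had some low arrays above it, and AT4G04460 and PIP had all of them above it.

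**Figure D3:**
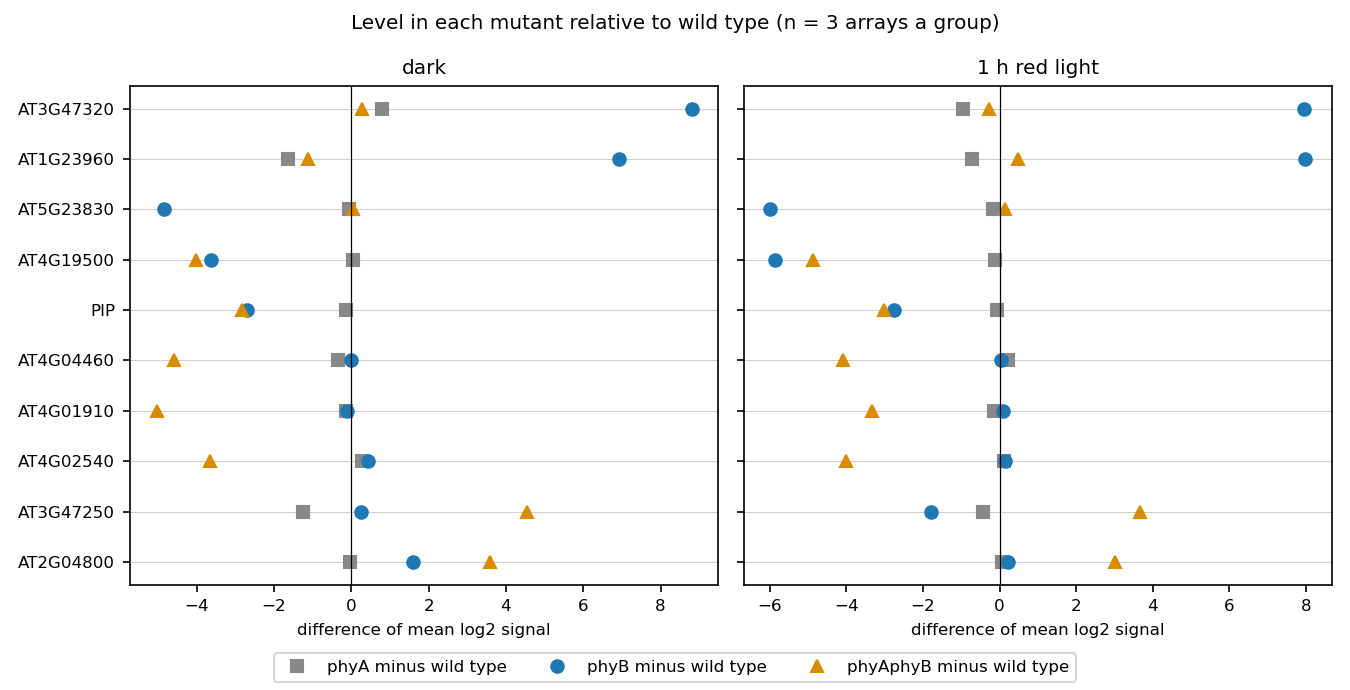
Difference of mean log2 signal between each mutant and wild type (n = 3 arrays a group), in the dark and after 1 hr of red light. The phyA squares lie between -1.63 and 0.79, and the phyB circles and phyAphyB triangles lie closest together for AT4G19500 and PIP.

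The response of each member to red light was not itself the quantity that chose the set, and it was tested. Dark and red arrays both entered the levels that chose the members, so the responses are not fully independent of that choice. A gene with a large change in red light would tend to miss an on-off pattern over both lights. A linear model (limma) fitted to all 24 arrays gave the red minus dark difference of log2 signal within each genotype, with Benjamini-Hochberg adjustment over 15085 probe sets. None of the 10 members passed an adjusted p under 0.05 in wild type (6.45% of all probe sets did), in phyA (4.34%) or in phyB (5.75%). At an unadjusted p under 0.05 there were 1, 1 and 2 of the 10 members, beside 17.8%, 17.3% and 16.4% of all probe sets, so these counts are no result about the members. In phyAphyB 1 member passed, where 0.305% of all probe sets did. The median absolute response of the members was 0.27 in wild type, 0.15 in phyA, 0.22 in phyB and 0.25 in phyAphyB. Over all tested probe sets it was 0.16, 0.17, 0.15 and 0.11. Dim readings that vary widely on the log scale enter the members' medians, so nothing is read from this comparison.

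The member that passed was the C1-domain gene AT4G01910, which rose in the double mutant from 10.4, 8.1 and 11.7 in the dark to 30.5, 22.5 and 38.2 in red light. All 3 red arrays were above all 3 dark arrays, but all 6 were below the dim line, and the gene passed the filter through the other genotypes. The fitted rise was 1.58 ± 0.23 (SE, log2; limma adjusted p = 0.00087, n = 3 arrays a group). Adding 32 signal units reduced it to 0.56, with a limma adjusted p of 0.48, so neither its size nor its call holds apart from the scale used for dim signals. In phyB the response was 0.10 ± 0.23 and in wild type -0.12 ± 0.23, neither of which passed. The response was larger in phyAphyB than in phyB by 1.48 ± 0.32 (limma adjusted p = 0.014, where 1.54% of probe sets passed), and larger than in wild type by 1.70 ± 0.32 (limma adjusted p = 0.0029, where 1.87% passed). With 32 units added these differences were 0.47 and 0.68, with limma adjusted p of 0.71 and 0.25. Fitted on the compared groups alone, the rise had an adjusted p of 0.92 and the difference from phyB one of 0.12.

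The difference of AT4G01910 from phyB also lost its call without the third red phyB array (1.31, limma adjusted p = 0.058) and without the third red phyAphyB array (1.30, adjusted p = 0.053). Without the second dark arrays of wild type and phyB, the rise had a limma adjusted p of 0.0029, and the differences were 1.44 (adjusted p = 0.048) and 1.70 (adjusted p = 0.013).

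**Figure D4:**
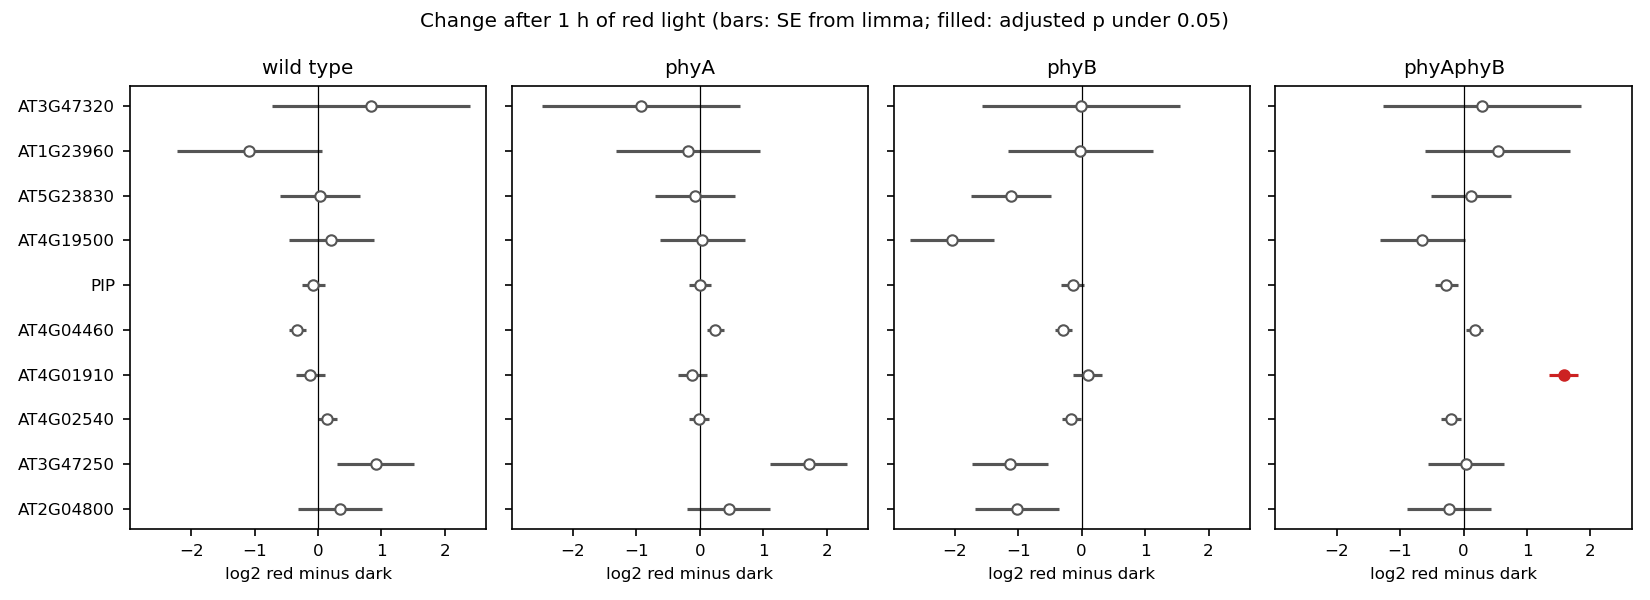
Red minus dark difference of log2 signal for each member in each genotype, with bars of 1 standard error from the fit (n = 3 arrays a group). AT4G01910 in phyAphyB, at 1.58, is the only response that passed the adjusted threshold.

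The other 9 members passed in no genotype, with precision that differed widely between them. For the bright AT4G04460, the standard error of a response was 0.13, and its response was -0.33 in wild type (limma adjusted p = 0.18) and -0.29 in phyB (adjusted p = 0.29). AT4G02540 and PIP were almost as precise, with standard errors of 0.15 and 0.18 and responses between -0.27 and 0.15 across the genotypes. For AT3G47320 and AT1G23960 the shared standard errors were 1.56 and 1.14, and their dim readings in 3 genotypes varied widely on a log scale. In phyB, where both are bright, their responses were -0.01 and -0.02. AT4G19500 had a response of -2.04 ± 0.67 in phyB (limma adjusted p = 0.077), from 62.1, 134 and 24.3 to 39.3, 5 and 14.7, which overlap. Without the second dark arrays of wild type and phyB it was -1.45 (limma adjusted p = 0.39), so that the second dark phyB array moved it. AT5G23830 in phyB moved from -1.11 (limma adjusted p = 0.41) to 0.09 (adjusted p = 0.98) in the same way. For AT1G23960 and AT3G47320 in wild type, leaving out those arrays turned -1.08 to 0.64 and moved 0.84 to 3.17, all without a call. AT2G04800 in wild type turned from 0.35 to -0.24. AT3G47250 in phyB went from -1.13 to -1.48. For PIP in phyB the response went from -0.14 to 0.18, and none of the members was called in wild type or phyB without those arrays. AT3G47250 had a response of 1.72 ± 0.60 in phyA (limma adjusted p = 0.11) among signals that were all below the dim line. AT2G04800 in phyB had a response of -1.02 ± 0.66 (limma adjusted p = 0.50). It went from 78.4, 92.2 and 82.1 to 45, 33.4 and 47.2, which do not overlap and are all below the dim line. Its shared standard error takes in dark wild type and dark phyA, where the SD of log2 signal was 1.52 and 1.90.

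Members of the same pattern followed each other across the 24 arrays, as their choice makes them do. Pearson's r of log2 signal was 0.93 between AT3G47320 and AT1G23960, 0.94 between AT4G19500 and PIP, 0.96 to 0.99 among the 3 members low in the double mutant, and 0.76 between AT3G47250 and AT2G04800. These values rest on the genotype differences that all arrays of a genotype share.

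The 2 other named genes with the signal most like each member's were taken by Pearson's r over the 24 arrays, among 199 probe sets whose group means spanned at least 2 log2 units. For PIP they were AAH (0.985), which encodes allantoate amidohydrolase of purine breakdown, and AT5G38030 (0.964), a transporter of the MATE family. The same 2 genes were nearest to AT4G19500, at 0.940 and 0.921. AT5G23830 was most like AT2G25450 (0.975), a dioxygenase linked to glucosinolates, and LUL1 (0.930), a ubiquitin ligase. AT2G25450 had group means of 1030 and 523 in phyB and 9812 to 12484 in the other groups.

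AT4G04460 was most like AT3G32080 (0.986) and AT4G02450 (0.984), a homolog of the p23 co-chaperone of HSP90. AT4G02540 was most like AT3G61010 (0.985) and AT4G02450 (0.982), and AT4G01910 most like AT3G32080 (0.978) and another probe set of AT3G61010 (0.966). For AT3G47320 the nearest were AT4G29200 (0.934) and AT5G27750 (0.932), and for AT1G23960 AT5G27750 (0.947) and AT5G48350 (0.946). AT3G47250 was most like AT3G47210 (0.903) and AT3G13440 (0.889), and AT2G04800 like AT4G19730 (0.841) and AT1G18940 (0.831). Of these, AT3G47210, AT4G02450 and AT4G19730 also lay among the nearest measured genes on the chromosome to a member. For AT3G47210 that was AT3G47250, and for AT4G02450 it was AT4G02540, both members they were most like. AT4G02450 was not among the neighbours of AT4G04460, which it also resembled. AT4G19730 lay near AT4G19500 and not near AT2G04800, the member it was most like.

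The members lie on all 5 chromosomes in the TAIR10.1 gene order, with 4 of them on chromosome 4. AT3G47250 and AT3G47320 are separated by 10 genes on chromosome 3, of which 3 are protein coding and 2 were measured, and they have unlike patterns, one high in the double mutant and the other high in phyB. On chromosome 4, AT4G01910 and AT4G02540 have 94 genes between them, of which 20 were measured, and AT4G02540 and AT4G04460 have 351. All 3 are low in the double mutant alone. On chromosome 2, 635 genes lie between PIP and PHYB, and on chromosome 1, 1876 lie between PHYA and AT1G23960.

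Position was not used to choose the members, so their neighbours were described next. Up to 5 measured genes on each side of a member gave 92 neighbours that are not members. Of these, 23 (25%) had phyAphyB and phyB arrays that did not overlap in the dark nor in red light, beside 15.4% of all tested probe sets. The median absolute log2 level difference was 0.27 in the dark and 0.28 in red light, beside 0.18 and 0.21 over all. An on-off pattern was met by 3 neighbours (3.26%), AT3G47210, AT4G19730 and AT4G02450, beside 0.491% of all tested probe sets. The sets are not alike. Neighbours were read by the brightest probe set of each gene, among the 8185 tested probe sets paired with 1 gene. The shares beside them are over all 15085. The neighbours of AT3G47250 and AT3G47320 are partly the same genes, so they are not independent.

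Of the 23, 6 differed by at least 2-fold in both lights. AT3G47210, a DUF247 gene with 4 genes between it and AT3G47250, was higher in the double mutant, as AT3G47250 was, at 479, 447 and 392 in the dark against 91.6, 116 and 74.8 in phyB. AT4G02450, with 15 genes between it and AT4G02540, was lower in the double mutant, as that member was, at 172, 158 and 202 against 792, 928 and 857 in the dark. AT4G19730, with 29 genes between it and AT4G19500, read 153, 149.8 and 204 against 24.9, 31.2 and 35.9 in the dark, which is higher in the double mutant where AT4G19500 itself was low in both. AT3G47210 is also among the neighbours of AT3G47320, with 15 genes between them, and it went the opposite way from that member, which was lower in the double mutant. Thus, between phyAphyB and phyB, AT3G47210 went with AT3G47250 and against AT3G47320. AT4G02450 went the way of its member, and AT4G19730 did not. This difference cannot pick out neighbours that are low in both mutants, as AT4G19500 and PIP are. AT4G19470, with 3 genes between it and AT4G19500, had dark means of 215 in wild type, 69.6 in phyB and 63.5 in phyAphyB. The means in both mutants are below the dim line. AT4G19730 had dark means of 5.67, 30.7 and 169 in the same order. AT4G19510, the gene next to AT4G19500, is described with its family below. AT4G01870, with 8 genes between it and AT4G01910, was higher in the double mutant by 1.76 in the dark and 1.81 in red light (log2 level), opposite to AT4G01910. UGT74B1, a glucosyltransferase of glucosinolate synthesis with 22 genes between it and AT1G23960, was lower in the double mutant than in phyB by differences of -1.69 and -1.33, as AT1G23960 was. AT2G14800, with 89 genes between it and PIP, was higher by 1.47 and 2.16 in the double mutant than in phyB, and in phyA it read 225, 269 and 349.5 in the dark against 81.3, 58.1 and 124 in wild type.

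**Figure D5:**
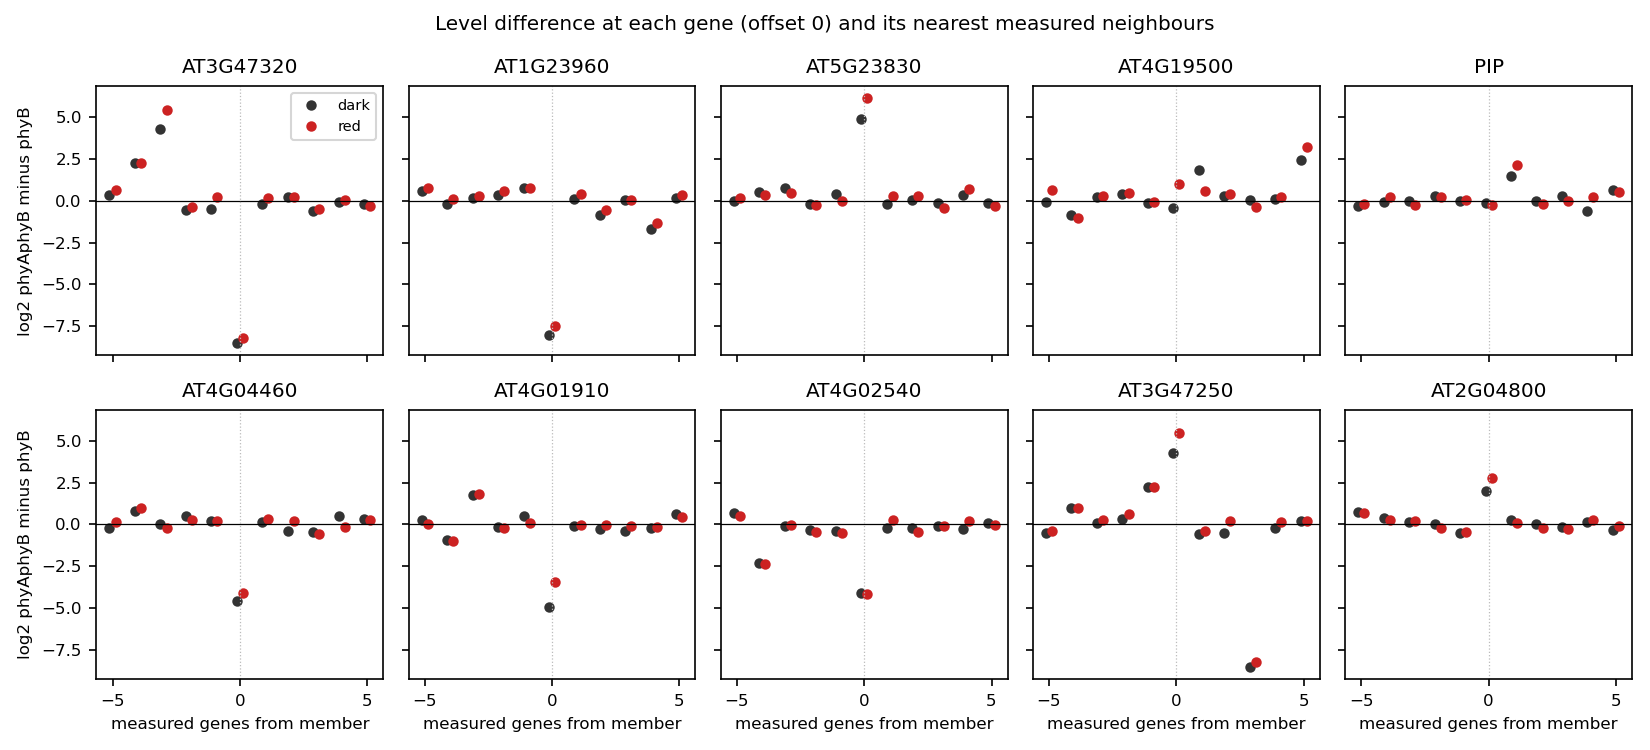
Log2 level difference of phyAphyB minus phyB at each member (offset 0) and its up to 5 nearest measured genes on each side, in the dark and in red light (group means, n = 3 arrays). Most neighbours lie near 0, and AT3G47210, 1 measured gene before AT3G47250, is at 2.24 in both lights.

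Genes of the members' families were taken from lists of loci compiled by hand, with earlier results of these data known. The p-values for their levels are therefore no independent support. No family gene passed in any red response or difference of response. In level, of 4 listed aspartic protease genes 2 were measured, APA1 and AT1G62290, and 0 passed between phyAphyB and phyB in either light (10.8% of all tested probe sets did in the dark and 17.0% in red light), with medians of 0.042 and -0.024 beside 0.0037 and 0.0049 over all tested probe sets. Of 5 MD-2-related genes 4 were measured, of which AT2G16005 differed most. It read 182, 171 and 91.3 in dark wild type, 532, 717 and 554 in dark phyB and 3331, 2515 and 2946 in dark phyAphyB. The log2 level was 2.29 ± 0.28 higher in phyAphyB than in phyB in the dark (limma adjusted p = 2.1e-06) and 1.83 ± 0.28 in red light (adjusted p = 2.7e-05). It was also 2.07 ± 0.28 higher in phyB than in wild type in the dark (limma adjusted p = 1.4e-05). In phyA it was below wild type, by differences of -0.64 ± 0.28 in the dark (limma adjusted p = 0.19) and -1.06 ± 0.28 in red light (adjusted p = 0.034, where 2.59% of probe sets passed). The red-light phyA readings of 84.1, 97.6 and 34 were all below the dim line. With 32 units added, the red-light difference of phyA from wild type was -0.76 (limma adjusted p = 0.046). AT2G16005 was thus higher than wild type in phyB and most in the double mutant, and lower, among dim signals, in red-light phyA. AT5G23830 of the same family was low in phyB alone. AT3G44100 was lower in phyAphyB than in phyB in red light by a difference of -0.38 ± 0.11 (limma adjusted p = 0.022).

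Of 11 listed TIR-NBS-LRR genes, 2 were measured. AT4G19510 is the next gene to AT4G19500, with 0 genes between them. It read 132, 150.2 and 161 in dark wild type, 19.1, 7.9 and 11.5 in dark phyB and 59.5, 38 and 34.3 in dark phyAphyB. Like AT4G19500 it was lower in both mutants than in wild type, a difference that 7.23% (phyB) and 11.2% (phyAphyB) of probe sets passed in the dark and 7.03% and 17.3% in red light. Its readings in phyB and phyAphyB were all below the dim line, and it passed the filter through wild type and phyA. The sizes of the differences therefore depend on the scale for dim signals. As the filter chose it by its high genotypes, the p-values given for AT4G19510 are no independent support for a difference from wild type. It was lower by differences of -3.61 ± 0.52 for phyB (limma adjusted p = 3.6e-05) and -1.79 ± 0.52 for phyAphyB (adjusted p = 0.025) in the dark, and of -2.97 ± 0.52 (adjusted p = 0.00038) and -2.40 ± 0.52 (adjusted p = 0.0016) in red light. With 32 units added they were -2.01 and -1.25 in the dark (limma adjusted p = 9e-06 and 0.0017) and -1.79 and -1.55 in red light (adjusted p = 4e-05 and 9.6e-05). Between both mutants it was higher in phyAphyB in the dark by 1.83 ± 0.52 (limma adjusted p = 0.022), a call lost with 32 units added (0.75, adjusted p = 0.066). AT4G19530 did not pass in any of these. Of 11 DUF247 genes 1 was measured, AT3G47210, described above. It was higher in phyAphyB than in phyB by 2.24 ± 0.26 in the dark (limma adjusted p = 1.2e-06) and 2.24 ± 0.26 in red light (adjusted p = 6.4e-07). With 32 units added the differences were 1.91 and 1.88 (limma adjusted p = 1.3e-07 and 9.2e-08). Its red-light phyB readings of 82.6, 77.6 and 91.7 were all below the dim line. As AT3G47210 already met an on-off pattern in these same levels, its p-values are no independent support. Of 11 further C1-domain genes listed, 0 were measured.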

How the data were processed

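RNA of 24 whole-seedling samples was measured on Affymetrix arrays, 3 for each of 8 groups of genotype and light. The authors deposited intensity values, 1 linear signal per probe set and array. The signal algorithm was MAS5, with no version stated, per the submitters' processing notes. The deposited intensities were kept as scaled. Scanner files and detection calls were not used here, and the number of arrays limits the precision.

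Of 22810 probe sets, 64 controls were left out. The filter kept the 15085 with at least 3 arrays above the 40th percentile of the array itself, all 10 members among them. A member that is bright in 1 genotype alone passes that filter through it. Signals were taken to log2 with no pseudocount, and 0 of the tested signals were zero.

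All 24 arrays entered 1 fit of the group means (limma 3.58.1, R 4.3.3, eBayes with an intensity trend), with two-sided tests and Benjamini-Hochberg adjustment over the 15085, called at an adjusted p under 0.05. The p-values measure the spread between the samples of all 8 groups, pooled into 1 value per probe set. For an on-off gene, the log-scale noise of its dim groups thus enters the error for its bright ones. The procedure was tested on simulated data.

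Probe sets were named through the platform annotation, and symbols and gene order came from the TAIR10.1 gene table. Coordinates are left out, since no source used here gives the probes' build. Genes named in the text are the members, the 2 most similar genes of each by Pearson's r, neighbours within 5 measured genes whose phyAphyB and phyB arrays do not overlap (those of at least 2-fold by name), and up to 4 called genes of each family list. AT4G19470, outside these rules, was added after its values had been seen. The gene table holds no family descriptions, so hand-written lists of loci were used. The members and lists were chosen with earlier results of these data known.

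Alternatives covered the scaling (quantile), the filter (none, or the 60th percentile), a pseudocount of 32, no intensity trend, array weights, a fit of the compared groups alone, a replicate block, each array left out in turn, and dark phyA replicates 2 and 3 left out together. Leaving out the second dark wild type and phyB arrays together, and the pseudocount for family genes, were chosen once the data were known.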

Additional observations from a re-analysis of the deposited data

Results flagged for a closer look

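The red response of AT4G01910, a gene for a protein with C1 domains, differed between genotypes by the test of the difference itself. The fitted response was larger in phyAphyB than in phyB by 1.48 on the log2 scale, and larger than in wild type by 1.70. With 32 signal units added, neither call held (0.47, limma adjusted p = 0.71, and 0.68, adjusted p = 0.25). The double mutant signals were 10.4, 8.1 and 11.7 in the dark and 30.5, 22.5 and 38.2 in red light, all below the 40th percentile of their arrays, and the gene passed the filter through the other genotypes. In phyB and wild type the gene read between 254 and 439 in both lights. The part of low signal in this result was not tested beyond the alternatives given with it.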

How the results depend on the processing

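No called result changed direction under the alternatives run. The count of called probe sets rose with array weights, which gave 1758 in wild type, 1233 in phyA, 1533 in phyB and 107 in phyAphyB for the red response, against 973, 655, 867 and 46. For the differences of response, array weights gave 418 from phyB and 578 from wild type, against 232 and 282. Fitted on the compared groups alone, the counts were 233 in phyA and 24 in phyAphyB. Without dark phyA replicates 2 and 3 together, the count in phyA was 413. With single arrays left out, the counts ranged from 713 to 1044 in wild type, 401 to 1008 in phyA, 641 to 844 in phyB, 24 to 31 in phyAphyB, 171 to 213 for the difference from phyB and 206 to 276 for that from wild type. The phyA extremes were those without dark replicate 2 (401) and dark replicate 1 (1008). In phyAphyB the count was 24 without dark replicate 1, 30 without dark replicate 3, and 25, 26 and 27 without red replicates 1, 2 and 3. The causes were not tested. Without the second dark arrays of wild type and phyB, an alternative chosen after seeing the data, the counts were 723, 618, 729, 49, 217 and 214 in the order above.

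Within each genotype, the replicate numbers did not pair the dark samples with the red ones. Pairs across genotypes in the same light were not compared. Same-numbered deviations correlated at -0.173 to 0.117, over 0.1 in 1 of 12 pairs of arrays. Of 12 comparisons, 4 were highest for the own number. The replicate block gave counts of 948, 616, 845, 42, 212 and 264 and changed no call of a member.

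For the members' responses, settings other than leaving out 1 array kept the call in 592 cases, lost it in 5 and gained it in 3. The 5 are those of AT4G01910 given with its result. Gained calls were AT4G04460 in wild type (-0.41, limma adjusted p = 0.021), its difference of response from wild type (0.56, adjusted p = 0.049) and AT4G19500 in phyB (-1.97, adjusted p = 0.047), all with array weights. With single arrays left out, 473 cases kept the call, 2 lost it and 5 gained it. The gains were AT4G19500 in phyB without dark replicate 3 (-2.68, limma adjusted p = 0.025) or red replicate 1 (-2.78, adjusted p = 0.015), AT5G23830 in phyB without dark replicate 1 (-2.0, adjusted p = 0.043), AT3G47250 in phyA without red replicate 3 (2.29, adjusted p = 0.042) and AT4G04460 in wild type without dark replicate 1 (-0.47, adjusted p = 0.044). The pseudocount of 32 moved 15 of the 20 level differences between phyAphyB and phyB by more than the spread between arrays, and kept each direction. In groups with all 3 arrays of a member below the 40th percentile, the SD of log2 signal ran from 0.12 (AT2G04800, dark phyB) to 4.33 (AT3G47320, dark wild type), and it limits what response can be seen there. With 32 units added, a setting chosen for family genes after seeing the data, 17 of their 18 called level differences kept the call, and the one lost is given with AT4G19510.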

Other observations

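The named genes of each pattern were placed on the chromosomes by the TAIR10.1 gene table. Of 14 genes low in the double mutant alone, 3 members included, 5 were on chromosome 3 and 5 on chromosome 4 (35.7% each), where 20% and 14.7% of 8081 measured genes lie. Of 9 genes high in the double mutant alone, 4 were on chromosome 4 and 3 on chromosome 3. Of 8 genes high in phyB alone, 4 were on chromosome 5, where 24.1% of the measured genes lie. These counts are small, rest on genes chosen by their levels and were not tested.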
